A study of Mus musculus with 4 samples.

Results

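Type A intercalated cells of the mouse kidney were described here from single-nucleus RNA sequencing of 4 mice. They were found as 1 of the 23 clusters of nuclei in the deposited table of cluster averages. Among the clusters numbered 13 to 22, the cluster with the highest mean of *Slc4a1* over the 4 mice was taken, which was cluster 18. The cluster was thus chosen by its measured *Slc4a1* values. It holds 4 of the 92 columns of the table, 1 column for each mouse. A value in this table is the mean normalized count of a gene in the nuclei of 1 cluster and 1 mouse, after each nucleus was scaled to 10000 counts. All differences below are differences of log2(value + 1), so they understate the change of genes with low values.

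The nuclei came from kidney cortex of male mice of mixed strain, and each condition had 1 mouse. The control mouse carried TRE-hKLF6 alone, a human *KLF6* transgene that is silent without its activator. The hKLF6OE mouse carried CAG-rtTA and TRE-hKLF6, so that doxycycline switched the transgene on in all cells that the ubiquitous CAG promoter reaches, not in the tubule alone. The other two mice had the same genotypes and received aristolochic acid I (AAI), a plant nephrotoxin that forms DNA adducts and is taken up mainly by the proximal tubule. All 4 mice were on a doxycycline diet of 200 mg/kg. AAI was given once at 2 mg/kg in DMSO, and the kidneys were collected 24 hours later. The mice without AAI are labelled as untreated, while the methods of the study give them DMSO alone. The table has no row for human *KLF6*, so the transgene itself was not checked here. With 1 mouse per condition there is no replicate of any condition, no test was made and no p-value is given. The number of nuclei behind each column is not in the table, so no counting interval could be set around a value.

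Intercalated cells sit between the principal cells of the connecting tubule and collecting duct and adjust acid-base balance. Type A cells pump protons into the urine with an apical vacuolar ATPase and return bicarbonate to the blood through AE1, the anion exchanger encoded by *Slc4a1*. Type B cells do the reverse and secrete bicarbonate through pendrin, encoded by *Slc26a4*. Both types use cytosolic carbonic anhydrase, and both depend on the forkhead factor FOXI1.

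*Slc4a1* (chr11:102348824-102366203 on GRCm38, minus strand) chose the cluster, so its level is a description. In cluster 18 it was 2.62 in the control mouse, 0.980 in the control mouse with AAI, 1.79 in the hKLF6OE mouse and 1.14 in the hKLF6OE mouse with AAI. The mean of 1.63 stood against 0.111 in cluster 22, the next in order, and 0.0981 in cluster 21. In cluster 22 the value came from 1 mouse, since 3 of its 4 columns were at 0. *Kit*, a receptor tyrosine kinase and the other marker given for this cell, was 9.55, 6.36, 8.29 and 8.86 in the same order of mice. The next cluster for *Kit* was cluster 19, at 3.03. *Slc4a1* was highest here by the choice of the cluster, so *Kit* alone was a check of the label, and it was also highest in cluster 18.

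**Figure D1:**
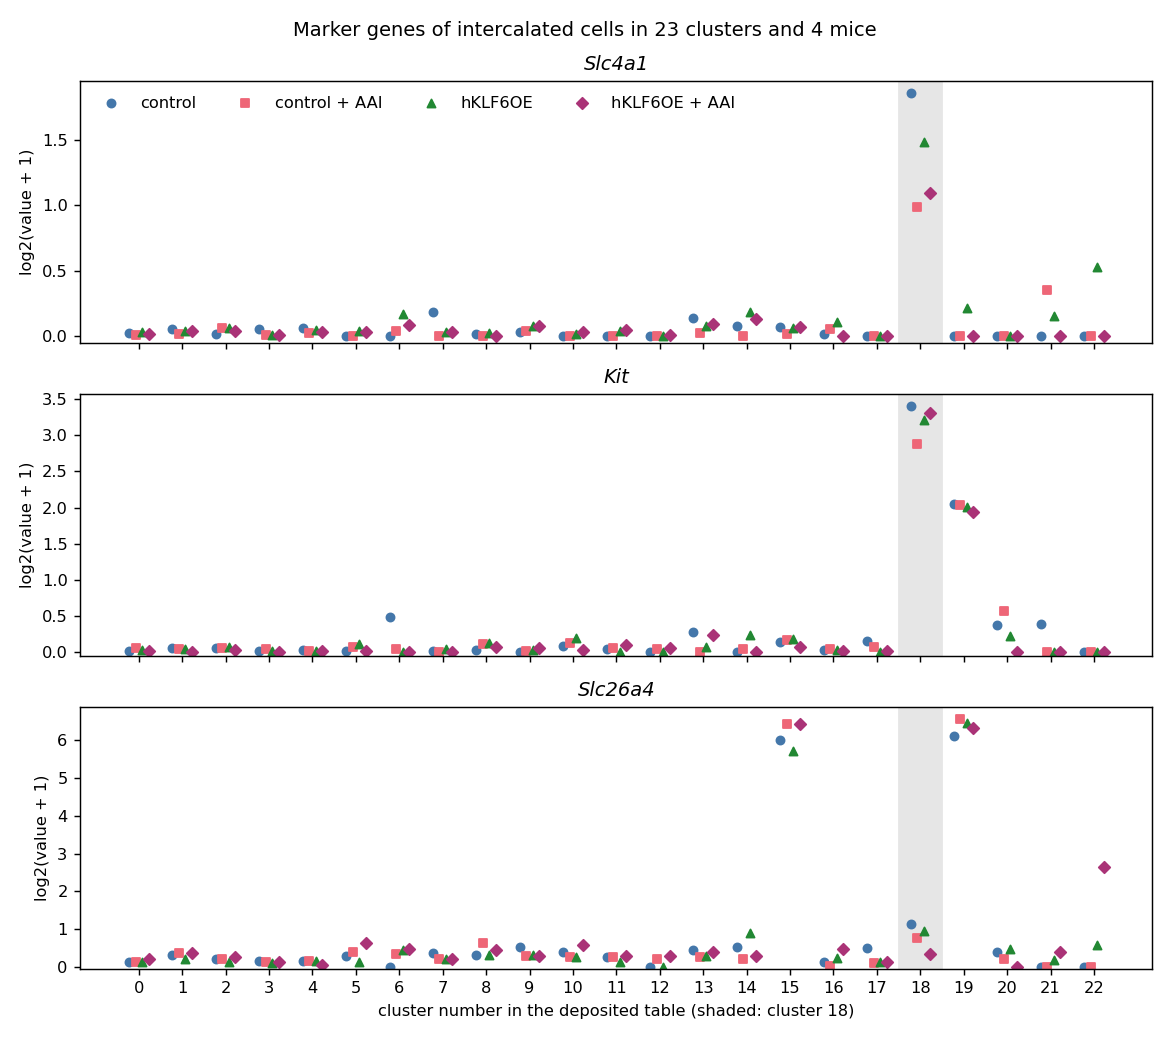
Level of Slc4a1, Kit and Slc26a4, as log2(value + 1), in each of the 23 clusters (horizontal axis, cluster number) and each mouse (1 point per mouse, shape and colour by condition). Cluster 18 is shaded and stands above the others for Slc4a1 and Kit, while Slc26a4 is high in clusters 15 and 19, whose means were 71.5 and 81.8.

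*Slc26a4* was high in 2 clusters, 19 with a mean of 81.8 and 15 with a mean of 71.5, and these 2 were taken as the type B side of the comparison. In cluster 18 it was 1.18, 0.691, 0.936 and 0.256, and cluster 22 lay just above it by mean, at 1.43. That mean came mostly from 1 mouse, as the values in cluster 22 were 0, 0, 0.502 and 5.22. Across 8112 detected genes, those with a mean of 0.5 or more in at least 1 cluster, the mean profile of cluster 18 was most like that of cluster 15 (Pearson r = 0.938), followed by cluster 9, which has the highest *Slc8a1*, at 0.874 and cluster 19 at 0.873. These correlations are across genes, which are not independent replicates.

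In cluster 18, between 38.0% and 43.0% of genes were at 0, against 15.1% to 63.4% over all 92 columns. Mitochondrially encoded transcripts took 1.43% to 3.27% of the counts, against 0.627% to 7.70% over all columns. Summed markers of podocytes, leukocytes and fibroblasts stayed under 1 in each mouse, and endothelial markers summed to 0.908 to 2.64, against 104 in cluster 10. Proximal tubule markers summed to 58.4 to 124, against 257 in the cluster where they were highest, and markers of the connecting and distal convoluted tubule to 15.1 to 72.9, against 386. Doublet removal is not part of the methods given for these nuclei, and neither free RNA nor doublets can be measured in averages.

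Of the 7 type A markers, 6 were above all 22 other clusters in each of the 4 mice. These were *Slc4a1*, which is among them by the choice of the cluster, and *Kit*, *Aqp6*, *Adgrf5*, *Dmrt2* and *Slc26a7*. The background for this pattern was 0.518% of the 8112 detected genes. The clusters were made from these same values, so the share describes them and tests nothing. *P2ry14*, which encodes the receptor for UDP-glucose, was 0.841, 0.890, 0.702 and 0.564 and was above both *Slc26a4*-high clusters in each mouse. Cluster 20, the cluster with the highest leukocyte markers, had a *P2ry14* mean of 0.581. The 7 markers summed to 35.7 in the control mouse, 27.0 with AAI, 34.8 in hKLF6OE and 33.2 in hKLF6OE with AAI, and the highest other cluster reached 4.69.

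*Aqp6*, an intracellular water and anion channel of type A cells, stood furthest above every other cluster. Its values were 4.05, 3.54, 3.35 and 2.88, and the highest other mean was 0.177, in cluster 15. *Adgrf5*, an adhesion G protein-coupled receptor that the endothelium also uses, was 16.1, 13.7, 17.5 and 17.4 against 4.35 in cluster 10, the cluster with the highest endothelial markers. *Dmrt2*, a DM-domain transcription factor, was 1.20, 0.844, 1.63 and 1.14, with no other cluster mean above 0.0160. *Slc26a7*, a chloride and bicarbonate exchanger, was 1.38, 0.701, 1.55 and 1.18, with no other mean above 0.0966.

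The 250 bases before the start of 3 genes are shown as examples from the cells' identity genes and the proton pump. They are *Aqp6*, *Pdlim3* and *Atp6v1b1*, the last encoding the B1 subunit of the vacuolar ATPase, a known target of FOXI1. The sequences are from RefSeq on GRCm38.p6, all on the plus strand, and capitals mark the forkhead core TGTTTA, searched on both strands (TAAACA on the other). *Aqp6* is at chr15:99600950-99601199, *Pdlim3* at chr8:45885237-45885486 and *Atp6v1b1* at chr6:83742767-83743016.
Aqp6: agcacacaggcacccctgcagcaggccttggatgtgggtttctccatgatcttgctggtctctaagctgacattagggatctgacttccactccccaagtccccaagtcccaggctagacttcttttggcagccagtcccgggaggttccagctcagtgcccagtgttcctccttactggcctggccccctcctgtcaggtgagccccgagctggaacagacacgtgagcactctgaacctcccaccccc
Pdlim3: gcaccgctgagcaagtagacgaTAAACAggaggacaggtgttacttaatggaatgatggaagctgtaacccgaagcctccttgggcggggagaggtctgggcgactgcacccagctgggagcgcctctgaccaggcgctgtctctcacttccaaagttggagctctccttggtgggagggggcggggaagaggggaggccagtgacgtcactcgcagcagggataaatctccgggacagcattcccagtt
Atp6v1b1: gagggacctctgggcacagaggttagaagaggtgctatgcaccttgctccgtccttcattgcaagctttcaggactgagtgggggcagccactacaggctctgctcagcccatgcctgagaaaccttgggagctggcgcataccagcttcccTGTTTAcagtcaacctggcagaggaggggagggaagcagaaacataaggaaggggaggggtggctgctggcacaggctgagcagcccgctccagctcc

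The core was present in 12% of the 32851 RefSeq windows of this length, or in at least 1 window of 13.5% of 27025 genes. Of the 29 type A, type B and shared markers, 19 had a window, and 4 of these held the core. Of the 5 genes furthest above all other clusters, each had a window and 1, *Pdlim3*, held the core. The windows shown above are examples, so how many of them hold the core is not a share of any set. A match of letters is a description and not a binding site.

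Against every other cluster, 5 of 7246 genes were higher by 1 or more in each of the 4 mice, a background of 0.069%. They were *Aqp6*, *Slc35f1*, *Adgrf5*, *Pdlim3* and *Clnk*. *Slc35f1* (chr10:52690533-53111622), a member of a solute carrier family of nucleotide sugar transporters, was 3.55, 3.72, 5.56 and 7.25, against 0.429 in the highest other cluster. *Clnk*, an adaptor of immune receptor signaling, was 8.76, 9.17, 10.7 and 10.1, with 2.92 in cluster 15. *Pdlim3*, an actin-binding PDZ and LIM protein, was 1.57, 1.68, 2.04 and 2.88, with no other mean above 0.173. By the rule that picked these genes, the value in cluster 18 exceeded that of every other cluster within each mouse.

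The next genes by distance from the highest other cluster were *Dmrt2*, *Kit*, *Calcr*, *Slc4a1*, *Kctd16*, *Mme*, *Epb41l2*, *Gm34240*, *Tmod1* and *Pam*. *Calcr* encodes the calcitonin receptor and was 2.58, 3.06, 2.44 and 5.42, with 0.775 in cluster 22 and 0.0186 or less in both *Slc26a4*-high clusters. *Mme*, which encodes the membrane peptidase neprilysin, was 5.12, 4.86, 5.77 and 6.66, with 2.40 in cluster 17, the cluster with the highest podocyte markers. *Tmod1* and *Epb41l2* encode proteins of the membrane skeleton, the structure that holds AE1 in red cells. *Epb41l2*, of the protein 4.1 family, was 6.09, 6.05, 4.45 and 6.90, and *Tmod1*, a cap of actin filaments, was 1.69, 1.87, 1.07 and 1.92 against 0.718 in cluster 15. *Pam*, an enzyme that amidates peptides, was present in every cluster and stood at 37.1, 34.2, 37.7 and 42.5, with 24.3 in cluster 15.

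Against the *Slc26a4*-high clusters, 15 of 4001 genes were higher by 1 or more in each mouse (0.375%), and 13 of 3265 were lower (0.398%). Beside the genes named above, *Kctd8*, *Myo3b*, *Defb1*, *Pitpnc1*, *Eya2*, *Nkain3*, *Dlg2* and *Rapgef4* were higher. *Defb1*, a beta-defensin of the distal nephron, was 11, 9.73, 8.62 and 10.4, while its means were 0.568 in cluster 19 and 2.23 in cluster 15. Cluster 5, the cluster with the highest *Slc12a3*, had 7.39. *Myo3b* and *Kctd8* were each higher in another cluster, at 5.04 in cluster 7 and 3.60 in cluster 11, so they set type A apart from type B and not from the whole kidney.

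The 13 lower genes were *Lsamp*, *Slc26a4*, *Nbea*, *Tmem163*, *Insrr*, *Thsd7a*, *Rp1*, *Hmx2*, *Ank*, *Car12*, *Slc4a9*, *Gulp1* and *Ripor2*. *Slc26a4* is among them by the choice of the clusters compared. *Lsamp*, a cell adhesion protein, was 0.436, 0.408, 0.442 and 0.288, against 73.2 and 73.9. *Insrr*, the alkali sensor related to the insulin receptor, was 0.125, 0.307, 0.201 and 0.285, against 6.41 and 7.40. *Hmx2*, a homeobox factor, was at most 0.0958, against 4.19 and 1.63. The order of the levels in cluster 18 put *Nbea* at rank 17 among the 23 clusters, and *Slc4a9* near the top, at rank 3.

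Not each type B marker went the same way. Of the 7, 5 were below both *Slc26a4*-high clusters in each mouse, *Slc26a4* itself by the choice of these clusters and beside it *Slc4a9*, *Insrr*, *Hmx2* and *Lsamp*. *Slc4a9*, which encodes the basolateral exchanger AE4, was 10.0, 3.30, 7.74 and 5.28, well under the 37.0 and 22 of these clusters but above the 20 remaining clusters by mean. *Oxgr1*, the receptor for alpha-ketoglutarate, which is known for type B cells, was 5.43, 4.12, 4.64 and 3.69 in cluster 18. It was 3.77 in cluster 15 and 0.304 in cluster 19, and cluster 18 was the highest of all 23 in each mouse. *Spink8* was 1.02, 0.462, 0.693 and 0.60, with 0.781 and 0.634 in the *Slc26a4*-high clusters, and these ranges were not apart.

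Of the 15 markers shared by intercalated cells, 14 were detected and 13 ranked among the first 3 clusters by mean, against 13.2% of all detected genes. *Tfcp2l1*, a transcription factor of the collecting duct, was 23.5, 20.3, 21.7 and 22.9, above both *Slc26a4*-high clusters (15 and 16.6). *Foxi1* was 1.25, 0.660, 0.378 and 0.640, against 1.53 in cluster 19 and 0.793 in cluster 15. *Rhbg* and *Rhcg* encode ammonia transporters. *Rhbg* was 2.35, 2.35, 1.84 and 1.62 and was above each other cluster in each mouse, while *Rhcg*, at 2.77, 2.24, 4.08 and 2.66, had a mean below that of cluster 9 (3.27). *Car15* was at 0 in all 4 mice.

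The vacuolar ATPase list has 26 genes, of which 23 had a row and 20 were detected, and 12 of these ranked among the first 3 clusters. None was above both *Slc26a4*-high clusters in each mouse, where 5.1% of all detected genes were. *Atp6v1c2*, *Atp6v0b* and *Atp6ap2* were below both, where 3.08% of all detected genes were. *Atp6v1c2*, the C2 subunit, was 3.87, 4.50, 5.11 and 4.76, against 9.61 and 8.04. *Atp6v0a4*, the a4 subunit that anchors the pump at the plasma membrane, was 17.7, 14.8, 14.6 and 14.7, against 11.7 and 17.3. *Atp6v1b1* was 5.37, 4.05, 6.64 and 3.11, against 3.85 and 5.11, and neither subunit separated the 3 clusters. Among regulators of the pump, *Dmxl1* and *Dmxl2*, of the complex that assembles it, were below both *Slc26a4*-high clusters in each mouse, and *Ncoa7*, at 12.4 to 14.1, had its highest mean in cluster 18.

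The carbonic anhydrases differed by gene. *Car2*, the cytosolic enzyme, was 5.64, 7.03, 6.63 and 5.99, against 2.53 in cluster 19 and 6.83 in cluster 15. *Car12*, a membrane enzyme, was 8.48, 4.08, 7.13 and 5.23, against 38.3 and 21, and was lower in each mouse. Of 27 genes of bicarbonate, anion and ammonia transport, 18 were detected. *Slc26a7*, *Rhbg* and *Slc4a1*, which chose cluster 18, were above all others in each mouse, where 0.518% of all detected genes were. *Slc4a9* was below both *Slc26a4*-high clusters, as was *Slc26a4*, which chose them.

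*Atp1b1*, a beta subunit of the sodium pump, was above both *Slc26a4*-high clusters in each mouse. It was 8.98, 10.9, 9.58 and 10.3, against 5.90 and 7.88, but still at rank 9 among the 23 clusters. Of 22 potassium and chloride channels, 18 were detected. *Kcnj10*, *Kcnq1* and *Kcnk1* were above both, where 5.1% of all detected genes were, and none was below. *Scnn1b*, the beta subunit of the epithelial sodium channel and a principal cell marker, was 2.82, 3.01, 2.51 and 2.24. It was above the *Slc26a4*-high clusters (0.463 and 0.831) and under the 8.66 of cluster 13, which has the highest *Aqp2*.

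Of 23 receptors with a row, 19 were detected. *Kit*, *Adgrf5*, *P2ry14*, *Oxgr1*, *Insr* and *Nr3c2* were above both *Slc26a4*-high clusters in each mouse, where 5.1% of all detected genes were. *Insrr* and *Casr* were below both, where 3.08% of all detected genes were. *Nr3c2*, the mineralocorticoid receptor, was 16.6, 24.5, 12.1 and 16.7, against 11.8 and 13.4. *Casr*, the calcium-sensing receptor, was 0.149, 0.343, 0.112 and 0.0941, against 5.06 and 1.13. In the Notch pathway, which keeps principal cells from the intercalated fate, *Jag1* and *Maml3* were below both and none of 15 detected genes was above. The shares over all detected genes were again 3.08% below and 5.1% above. *Maml3*, a coactivator, was 4.41, 3.91, 2.45 and 4.03, against 11.7 and 5.11. Mouse *Klf6* and *Polr2a*, which encodes the largest subunit of RNA polymerase II, were also below both *Slc26a4*-high clusters in each mouse. Their sum was 1.07, 1.94, 1.46 and 1.55, the lowest mean of the 23 clusters.

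The second question was what AAI did to these nuclei. In both genotypes, 43 of 4193 genes were higher with AAI by 0.5 or more (1.03%), and 59 were lower (1.41%). The genotypes share no mouse in this comparison. Taken alone, the control pair gave 282 higher (5.79%) and 305 lower (6.26%) genes of 4869, and the hKLF6OE pair 467 higher (9.61%) and 452 lower (9.30%) of 4861, so most genes past the threshold in 1 pair were not past it in the other. Of all genes compared, the median difference was 0.01 in control and 0.05 in hKLF6OE. By the share of genes past the threshold in both genotypes, 2.43%, cluster 18 was eleventh of 23. Cluster 6, which has the highest sum of *Klf6* and *Polr2a*, was first with 27.2%. Its columns were unlike in coverage, with 62.6% (control) and 40.8% (hKLF6OE) of genes at 0 without AAI. With AAI, 22.5% and 22.2% were at 0, and the part of this in the 27.2% was not tested.

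**Figure D2:**
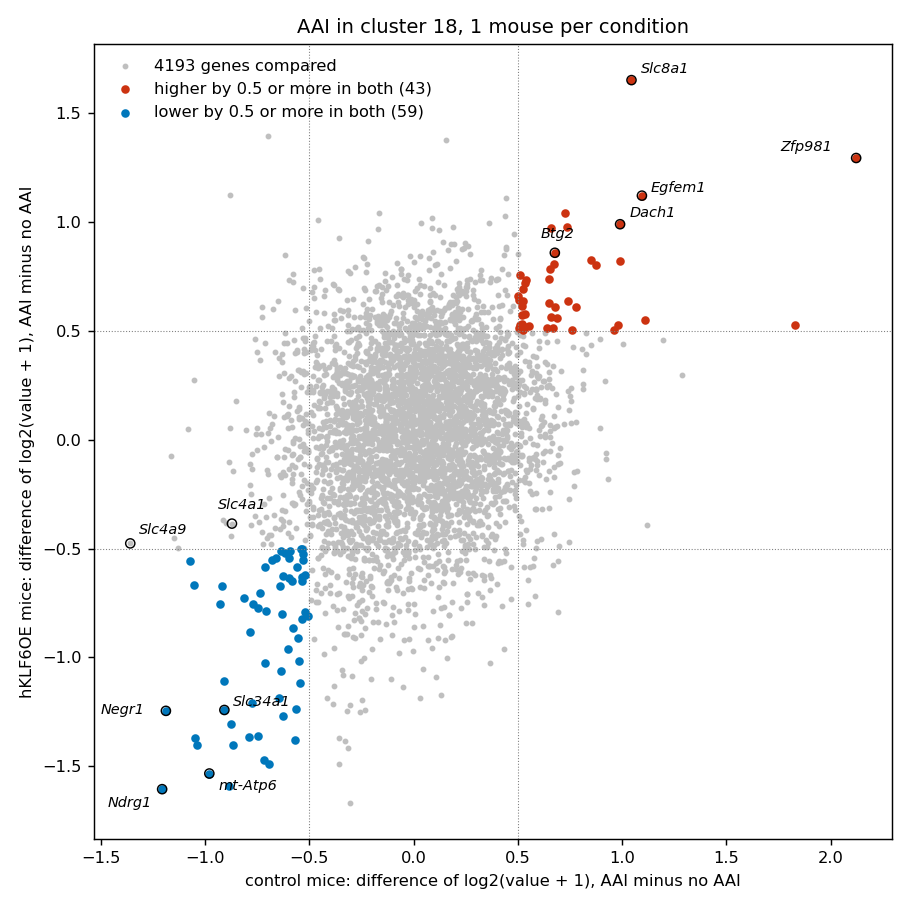
Difference of log2(value + 1) with AAI minus without it in cluster 18, for control mice (horizontal axis) and hKLF6OE mice (vertical axis), with 1 point for each of 4193 genes. Red and blue points are the 43 genes higher and 59 genes lower by 0.5 or more in both, dotted lines mark 0.5 and -0.5, and circled genes are named, among them Slc4a1 and Slc4a9, which lie outside the blue set.

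The 10 largest rises were *Zfp981*, *Egfem1*, *Slc8a1*, *Dach1*, *Rab28*, *Ssh2*, *Slit2*, *2610035D17Rik*, *Apobec3* and *Btg2*. *Zfp981*, a KRAB zinc finger gene among close copies on chr4, was listed at 0 in both mice without AAI and at 3.35 and 1.45 with it. Reads may be split among such copies. *Dach1*, a transcriptional repressor, was 7.74 without and 16.4 with AAI in control, and 8.18 and 17.2 in hKLF6OE. Its mean was 12.4 in cluster 18 and 67.1 in cluster 17. *Slit2*, a guidance ligand, was 8.83 and 17 in control, and 10.1 and 18.4 in hKLF6OE. *Apobec3*, a cytidine deaminase of antiviral defence, was 0.0326 and 0.708, and 0.0481 and 1.16. The median difference over the other clusters was 0.34 and 0.45 for *Dach1*, 0.40 and 0.39 for *Slit2*, and 0.05 and 0.08 for *Apobec3*. In each of these genes the mice with AAI lay above both mice without it, but the genes were picked for a rise in both pairs.

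*Slc8a1*, the sodium and calcium exchanger of the connecting tubule, was 27.2 and 57.3 in control, and 9.48 and 32.0 in hKLF6OE. In cluster 9, where it was highest, it was 366, 292, 223 and 412. Beside it, *Egfem1* and *Phactr1* also had their highest level in cluster 9. Of the 43 genes, 8 had a mean at least 5 times higher in another cluster, against 8.01% of all genes compared. The connecting and distal convoluted tubule markers summed to 41.6 and 72.9 in control and to 15.1 and 40.2 in hKLF6OE, but *Slc8a1* made up most of this sum and was the only member to pass. *Slc12a3* was 11 and 11 in control, and 3.82 and 4.94 in hKLF6OE, and *Trpm6* was 1.43 and 1.46, and 0.151 and 0.458. The part of transcripts of these segments in the rises was not tested.

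Of the 43 higher genes, 15 passed the same rule in no other cluster, against 71.0% of all genes compared. In at least 11 of the 22 others 3 passed, a count for which no share over all genes was made. *Tfap2b*, a transcription factor of the distal nephron, belonged to the 15 and was 0.595 and 1.29 in control, and 0.452 and 1.35 in hKLF6OE. In each of the *Slc26a4*-high clusters, 6 of the 43 passed. Of all genes compared there, 88 of 3980 were higher in cluster 19 and 35 of 4073 in cluster 15. Passing in one cluster and not in another does not show that clusters differ, and that difference was not tested.

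AAI damages DNA, and p53 drives the best known response to such damage. Of 38 p53 target genes, 11 could be compared. *Btg2* and *Trp53inp1* were higher in both genotypes, where 1.03% of all genes compared were, and none was lower. *Btg2*, an antiproliferative factor, was 0.0973 and 0.755 in control, and 0.200 and 1.18 in hKLF6OE. *Trp53inp1*, a p53-induced stress protein, was 0.155 and 0.821, and 0.116 and 0.922. *Mdm2*, the ligase that degrades p53, was 1.17 and 1.95, and 0.530 and 2.30, a difference of 0.44 in control that did not reach 0.5 and of 1.11 in hKLF6OE. The list's median difference was 0.40 in control and 0.11 in hKLF6OE, against 0.01 and 0.05 over all genes. Its sum was 7.32 and 13.7 in control, and 8.64 and 14.2 in hKLF6OE. The median over the other 22 clusters was a difference of 0.70 and 0.63 for *Btg2*, and of 0.87 and 0.77 for *Trp53inp1*, against 0.68 and 0.86, and 0.66 and 0.78, in cluster 18.

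The 10 largest falls were *Ndrg1*, *Negr1*, *mt-Nd4*, *Ttc36*, *mt-Atp6*, *Fbp1*, *Slc34a1*, *Inmt*, *Gm42397* and *Miox*. *Negr1* (chr3:156561794-157316445), a cell adhesion protein, had its highest mean of all clusters in cluster 18. It was 2.52 without and 0.544 with AAI in control, and 2.86 and 0.628 in hKLF6OE. Its means were 0.0136 and 0.0303 in the *Slc26a4*-high clusters, where so low a level leaves little room for a fall. It differed by -1.19 and -1.25 in cluster 18, and it was also lower by the same rule in 2 other clusters. *Ndrg1*, a stress-responsive gene, was 7.17 and 2.54, and 6.85 and 1.58, and the other clusters fell with it by a median of 1.03 and 1.21.

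*Slc34a1*, *Fbp1*, *Miox*, *Inmt* and *Kap* are genes of the proximal tubule. *Slc34a1*, the sodium and phosphate cotransporter, was 13.7 and 6.83 in control, and 14.8 and 5.70 in hKLF6OE, against a mean of 64.9 in cluster 1. *Kap*, an androgen-regulated kidney protein, was 73.2 and 49.8, and 92.3 and 42.0. The proximal tubule markers summed to 102 and 68.8 in control, and to 124 and 58.4 in hKLF6OE, but *Kap* made up most of each sum. Of the 9 markers, 2 were lower in both genotypes, against 1.41% of all genes compared. Of the 59 lower genes, 41 were also lower in cluster 6, where 415 of 4974 genes compared were lower. The columns of cluster 6 were unlike in coverage, as given above. In at least 11 of the 22 other clusters 16 of the 59 were lower, a count for which no share over all genes was made. In no other cluster were 8 lower, against 80.5% of all genes compared. A mean at least 5 times higher in another cluster was found for 13 of the 59, against 8.01% of all genes compared. The part of proximal tubule transcripts in this set was not tested.

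Mitochondrially encoded genes were the list with the largest fall. Of 11 compared, 6 were lower in both genotypes, where 1.41% of all genes compared were. The 6 were *mt-Nd1*, *mt-Nd2*, *mt-Nd4*, *mt-Atp6*, *mt-Co3* and *mt-Cytb*. *mt-Nd4*, of complex I, was 15.9 and 7.15 in control, and 23.3 and 8.38 in hKLF6OE. The median difference of the list was -0.63 and -1.22, and its sum was 243 and 143, and 326 and 153. Over the other clusters the median was -0.92 and -1.28 for *mt-Nd4*, and -0.93 and -1.76 for *mt-Atp6*. It was -0.05 and -0.66 for *mt-Nd1*, and -0.23 and -0.77 for *mt-Nd2*, against -0.53 and -0.53, and -0.58 and -0.65, in cluster 18. In control the other clusters thus had smaller differences for *mt-Nd1* and *mt-Nd2*. For *mt-Co3* the median was -0.70 and -1.43, against -0.79 and -1.37 in cluster 18, and for *mt-Cytb* -0.78 and -1.35, against -0.63 and -1.27. The mitochondrially encoded share was lower with AAI in both genotypes in each cluster but 16, where it was 1.28% and 1.34% in control. Nuclear genes of oxidative phosphorylation had medians of -0.17 and -0.31, with 34 of 56 below 0 in both genotypes, where 24.4% of all genes compared were, and only *Atp5d* passed the threshold in both. Transcripts of the mitochondrion in a nuclear preparation come from outside the nucleus, and how far their share reflects the cells was not tested.

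**Figure D3:**
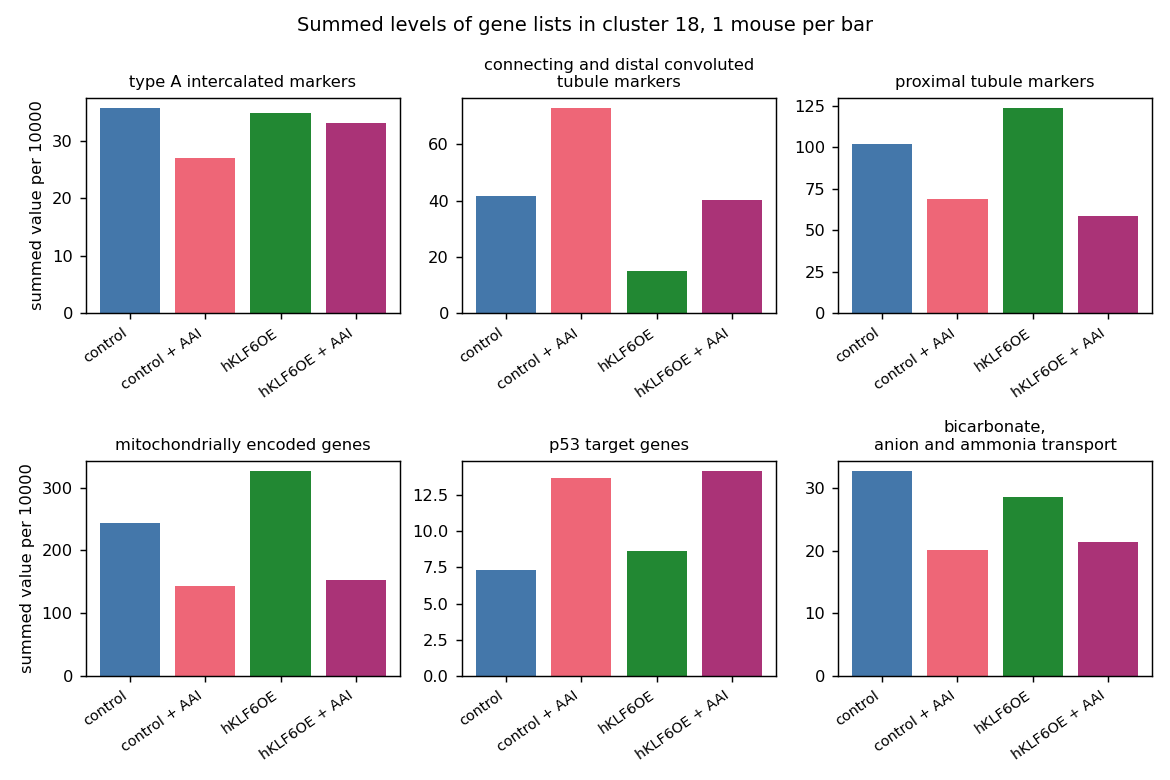
Summed values of 6 gene lists in cluster 18, with 1 bar per mouse and axes that start at 0. With AAI, the sums of mitochondrially encoded genes, proximal tubule markers and bicarbonate transport genes were lower and those of p53 targets and of connecting and distal convoluted tubule markers higher in both genotypes, the last mostly through Slc8a1. Kap made up most of the proximal tubule sum in each mouse.

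No type A, type B or shared intercalated marker passed the threshold with AAI in both genotypes. The type A markers had medians of -0.26 in control and -0.17 in hKLF6OE, and 5 of the 7 were below 0 in both, where 24.4% of all genes compared were. Of the type B markers, 4 could be compared, each below 0 in both genotypes, with medians of -0.42 and -0.37 and a sum of 18.3 and 9.30 in control, and 14.8 and 10.4 in hKLF6OE. The shared markers had medians of -0.14 and 0.01, with 3 of 14 below 0 in both. *Slc4a1* differed by -0.87 and -0.39, and both mice with AAI (0.980 and 1.14) were below both without (2.62 and 1.79). *Slc26a7*, with -0.48 and -0.22, and *Aqp6*, with -0.15 and -0.17, were also below 0 in both. *Kit* differed by -0.52 and 0.09, in opposite directions.

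Of 10 transporters of bicarbonate, anions and ammonia that could be compared, none passed the threshold with AAI in both genotypes. Of these, 6 were below 0 in both genotypes and 1 above, where 24.4% and 31.2% of all genes compared were, with medians of -0.29 and -0.31. *Slc4a9* had the largest difference of the list in control, with -1.36 in control (10.0 and 3.30) and -0.48 in hKLF6OE (7.74 and 5.28). In cluster 19 it was 40.1 and 31.5 in control, and 35.8 and 40.5 in hKLF6OE. *Slc4a4*, which encodes the sodium bicarbonate cotransporter of the proximal tubule, differed by -0.41 and -0.50, with 3.95 and 2.71, and 4.51 and 2.90, against a mean of 27.1 in cluster 1. *Car12* differed by -0.90 and -0.38, and its levels were also lower with AAI in cluster 19 (40.3 and 25.5, and 51.3 and 36.2). The list's sum was 32.8 and 20.2 in control, and 28.6 and 21.5 in hKLF6OE.

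Of 19 vacuolar ATPase genes compared, none passed, 5 were above 0 and 5 below 0 in both genotypes, and the medians were -0.03 and 0.03. *Atp6v1g3*, the G3 subunit of renal intercalated cells, was 6.20 and 8.77, and 7.48 and 10.7. *Atp6v1b1* was 5.37 and 4.05, and 6.64 and 3.11, with differences of -0.34 and -0.89. The differences of these subunits had opposite signs, each with the same sign in both genotypes.

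**Figure D4:**
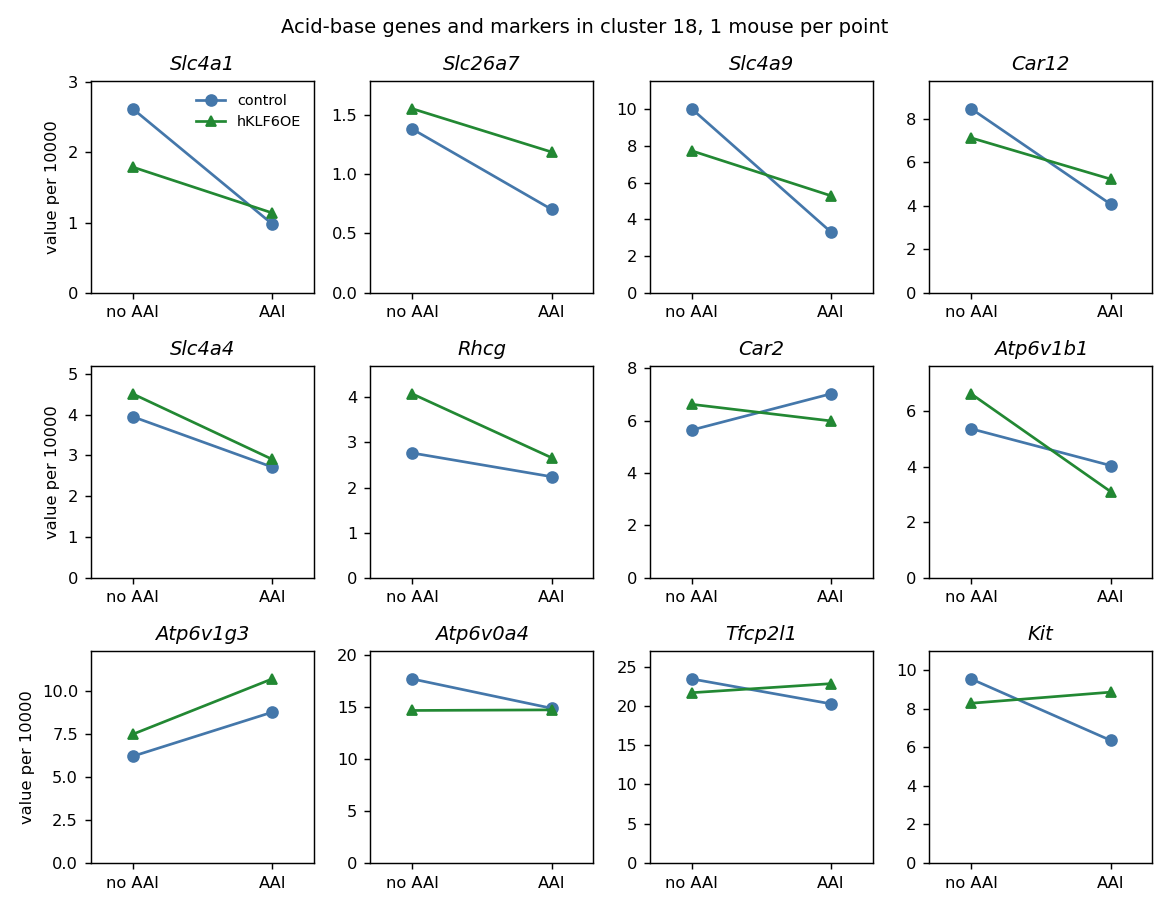
Values of 12 acid-base genes and markers in cluster 18 without and with AAI, on axes that start at 0, with lines joining the 2 control mice and the 2 hKLF6OE mice. Slc4a1, Slc26a7, Slc4a9, Car12, Slc4a4, Rhcg and Atp6v1b1 were lower with AAI in both genotypes and Atp6v1g3 was higher, while Car2, Atp6v0a4, Tfcp2l1 and Kit went in opposite directions.

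Few other lists had members past the threshold with AAI. *Hspa8*, a constitutive chaperone, was lower at 3.80 and 1.93, and 6.20 and 2.54, as 1 of 13 heat shock genes compared. *Pth1r*, the parathyroid hormone receptor, was lower at 1.35 and 0.590, and 2.54 and 0.50. *Slc12a1*, of the loop of Henle, was lower at 6.02 and 3.53, and 4.22 and 2.00, against 206 in cluster 7. *Sctr*, the secretin receptor of intercalated cells, was 1.55 and 0.162 in control, and 0.545 and 0.0955 in hKLF6OE, and just missed the threshold in hKLF6OE with -0.50. None passed among the Notch, injury, channel, immediate early, citrate cycle, glycolysis and cytosolic ribosomal genes.

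The third question was what hKLF6OE did. Without and with AAI, 7 of 4080 genes were higher in hKLF6OE by 0.5 or more (0.172%) and 26 were lower (0.637%). The 2 pairs share no mouse with each other, but each of these mice also enters the AAI comparison. In single pairs, 248 (5.07%) and 254 (5.37%) genes were higher, and 304 (6.22%) and 299 (6.32%) lower, without and with AAI. The medians over all genes were -0.04 and -0.01. Mouse *Klf6* was too low to be compared, and *Polr2a* did not pass. *Polr2a* was 1.01, 1.63, 1.26 and 1.25 in control, control with AAI, hKLF6OE and hKLF6OE with AAI.

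The 7 higher genes were *Pck1*, *Rtl4*, *Cox6a1*, *Dnal1*, *Tspan3*, *Slc35f1* and *Hnf4a*. *Slc35f1* is one of the identity genes above. It was 3.55 in control and 5.56 in hKLF6OE, and 3.72 and 7.25 with AAI, so both hKLF6OE mice lay above both control mice. A rise in both pairs was the rule that picked it. *Pck1*, an enzyme of gluconeogenesis, was 1.57 and 4.65, and 0.855 and 2.49, and its median over the other 22 clusters was also higher, by 0.99 and 0.79. *Cox6a1*, of complex IV, was 1.33 and 2.93, and 0.851 and 1.90, while the nuclear genes of oxidative phosphorylation as a list had medians of 0.26 without and 0.08 with AAI.

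The 10 largest falls were *Abca13*, *Slc12a3*, *Trabd2b*, *Egf*, *Slc8a1*, *Trpm6*, *Ptprg*, *Trim14*, *Tbck* and *Phactr1*. *Slc12a3*, the thiazide-sensitive cotransporter of the distal convoluted tubule, was 11 in control and 3.82 in hKLF6OE, and 11 and 4.94 with AAI. In cluster 5, where it was highest, it was 176 and 177, and 162 and 154, in the same order. *Abca13*, also highest in cluster 5 (47.1), was 3.44 and 0.392, and 5.45 and 0.517. *Trpm6*, a magnesium channel, was 1.43 and 0.151, and 1.46 and 0.458. Both hKLF6OE mice lay below both control mice for these 3 genes, which were picked for a fall in both pairs.

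Of the 26 lower genes, 13 had a mean at least 5 times higher in another cluster, against 7.89% of all genes compared, and 19 passed in no other cluster, against 88.2% of them. The connecting and distal convoluted tubule list had 3 of 4 genes lower (*Slc8a1*, *Slc12a3* and *Trpm6*), against 0.637% of all genes compared. Its medians were -1.20 and -0.79, and its sum was 41.6 in control and 15.1 in hKLF6OE, and 72.9 and 40.2 with AAI. This sum was 2.86 to 18.5 in cluster 19 and 7.74 to 26.8 in cluster 15. In cluster 18 the sum, mostly *Slc8a1*, was lower in hKLF6OE in both pairs, but it was also higher with AAI in both genotypes. The hKLF6OE mouse with AAI, at 40.2, was near the control mouse without it, at 41.6. The part of transcripts of these neighbouring segments in the 26 genes was not tested.

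Among the other 13 lower genes, *Fgf12* and *Asb15* had their highest mean of all clusters in cluster 18, and *Trim14* was at rank 2. The first 2 were chosen after their values were seen. *Fgf12*, an intracellular regulator of sodium channels, was 2.88 and 1.12, and 3.52 and 2.10 with AAI, against 0.830 in the highest other cluster. *Asb15*, of the SOCS box family, was 2.92 and 1.35, and 3.12 and 1.90. *Trim14*, an adaptor of antiviral signaling, was 1.78 and 0.75, and 0.780 and 0.0997, and so was lower with AAI in both genotypes as well. No type A, type B or shared marker passed between the genotypes, and the type A markers had medians of -0.11 and 0.22.

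Across the 23 cluster means, the genes whose levels followed *Slc4a1* most closely by rank were *Rab17*, a GTPase of polarized epithelia, with a Spearman rho of 0.728, and *Tmem61* with 0.715. They were followed by *Ubqln1*, *Wdr45b*, *Mrps33*, *Ppp1r9a*, *Setbp1*, *Cdc123*, *Gmps* and *Cnot7*, down to 0.674. *Tmem61* was 2.10, 0.926, 1.72 and 1.71 and had its highest mean in cluster 18. These are descriptions over 23 points that share the same 4 mice, and the *Slc4a1* means that were ranked were mostly near 0.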

How the data were processed

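The authors made the signal values. Reads were counted with Cell Ranger 3.1.0 on a mouse pre-mRNA reference (mm10), nuclei were filtered by genes and mitochondrial share and clustered with Seurat 4.3, and counts scaled to 10000 per nucleus were averaged by cluster and mouse, as deposited. The unit was inferred, as values sum to 10000 in each of 92 columns. Of 19632 gene rows, 23 with date-like names were left out, which leaves 19609. Depth and nuclei per column are not given, so precision is unknown, and the number of mice limits it.

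Python 3.11.15 with pandas 2.3.3 and numpy 2.4.6 was used. Groups came from the labels. Differences were of log2(value + 1), among genes at 0.5 or more on 1 side in each mouse or pair, and were counted from 1 between clusters (all 4 mice) and from 0.5 for AAI and genotype (both pairs). The pseudocount was 1. Type B clusters were those with *Slc26a4* at 0.25 or more of its highest mean. A gene was called detected when its mean reached 0.5 in at least 1 cluster. The scripts were tested on simulated data. Alternatives were the pseudocount, minimum, threshold, centring, mitochondrial genes, reference clusters, genes high elsewhere, the change in other clusters and each mouse left out.

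Genes were named by rule: intercalated markers, list members past the threshold or largest in their list, the 15 furthest above other clusters, the 12 highest and 12 lowest against the type B clusters, the 10 largest rises and falls for AAI and for genotype, and the 10 most like *Slc4a1*. The members and all 32 gene lists were chosen with earlier results of these data known. The gene coordinates are from GENCODE M21 on GRCm38, the build of mm10. The authors' own comparisons were not used. The results for some genes are not reported here.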

Additional observations from a re-analysis of the deposited data

Results flagged for a closer look

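Some values moved in opposite directions in the 2 pairs of the same comparison. The difference between the pairs was not tested, since each condition has 1 mouse. With AAI, *Hlf*, a clock-related transcription factor, was higher in control by 0.58 and lower in hKLF6OE, at -0.54 (0.301 and 0.943, and 1.01 and 0.377). In hKLF6OE against control, *Meis2*, a homeobox factor, was -0.67 without AAI and 0.54 with it. The ribosomal protein genes *Rpl19* (0.51 and -0.62), *Rpl29* (0.65 and -0.74) and *Rpl8* (0.55 and -0.55) were higher in hKLF6OE without AAI and lower with it. The medians of 2 lists did the same, cytosolic ribosomal proteins with 0.28 and -0.24, and proximal tubule markers with 0.26 and -0.21. The hKLF6OE mouse without AAI had the highest sum of the 4 for both lists, 51.1 for ribosomal proteins against 26.9 to 33.7 in the other 3 mice, and 124 for proximal tubule markers. Most of the 124 was *Kap*.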

How the results depend on the processing

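In the order higher than every other cluster, higher and lower than the type B clusters, higher and lower with AAI, and higher and lower in hKLF6OE, the counts were 5, 15, 13, 43, 59, 7 and 26. A pseudocount of 0.1 gave 9, 39, 30, 255, 289, 112 and 185. Lower thresholds (0.5 between clusters and 0.2 for changes) gave 11, 43, 31, 496, 408, 215 and 323, and higher ones (2 and 1) gave 0, 1, 4, 3, 4, 0 and 2. A minimum of 2 moved the last 4 counts to 20, 33, 4 and 14. Centring on the median moved the first to 17, the second to 23 and the rises with AAI to 28. With the mean of the type B clusters as reference, 27 genes were higher and 29 lower, and with cluster 19 alone 39 and 43. Without genes 5 times higher elsewhere, 13 were lower in hKLF6OE. Minus the median change of the other clusters, the last 4 counts were 21, 18, 3 and 17. With each mouse left out in turn, the first 3 counts ranged over 5 to 7, 16 to 23 and 13 to 16, with the 23 reached without the AAI-treated control mouse. Lists whose medians reached 0.2 the same way in both pairs, among those with at least 3 members compared, were 7, then 12 with a pseudocount of 0.1 and 4 with no minimum. Leaving out mitochondrially encoded genes moved none of the counts by over 1.5 times. No list or named gene past its threshold changed sign. No paired analysis was possible because each condition has 1 mouse. Depth per column is unknown, so low values could not be given an error.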
